A study of Mus musculus with 28 samples.

Results

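The genes described here are 50 axon guidance ligands and receptors of the Slit, Robo, semaphorin, plexin, neuropilin, ephrin, Eph, netrin and Unc5 families. They were taken by gene symbol from a list of these families, out of 23951 symbols in the deposited expression tables, and 27 are ligands and 23 are receptors. All samples came from NIH/3T3 Tet-On 3G cells, immortal fibroblasts of mouse embryos with an added transactivator that works in the presence of doxycycline. Polyadenylated RNA was sequenced from 2 control clones, transduced with the pair GFP-Luciferase/OFP-Luciferase and labelled wild type, and from 3 clones labelled as H3.3 knockdown, which carry the pair OFP-H3.3A/GFP-H3.3B. RBBP4 and MTA1, subunits of the nucleosome remodelling and deacetylase complex NuRD, were mapped by chromatin immunoprecipitation with sequencing (ChIP-seq) in 1 control and 1 knockdown library each, from cells carrying the same construct pairs. Unmodified cells gave 1 library for each of 6 NuRD subunits and 3 histone marks. The histone variant H3.3 was mapped in 2 replicates through the HA tag of an added HA/FLAG-H3.3 copy, in cells held with aphidicolin and given doxycycline. Each RNA library is 1 clone, so its values need not be those of the transduced population. The labels do not say whether clones of a group arose from separate transductions, so p-values measure the spread between these clones.

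Slits, class 3 semaphorins, netrins and ephrins are cues that steer growing axons and migrating cells. Slits signal through Robo receptors, class 3 semaphorins through neuropilin and plexin pairs, and netrins through the Unc5 family among others. Ephrins are bound to the membrane and signal in both directions with Eph receptors, the largest family of receptor tyrosine kinases. Outside the nervous system the same proteins act in fibroblast migration, vessel growth and tissue boundaries. H3.3 is laid down outside of DNA replication, and NuRD joins a remodelling ATPase with histone deacetylases. The samples address what H3.3 depletion does to binding of NuRD subunits and to expression.

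Of the 50 guidance genes, 32 had a mean of at least 1 FPKM (fragments scaled by transcript length and library size) over the 5 clones and entered the test, 17 ligands and 15 receptors. The other 18 had means from 0 to 0.863 FPKM and are described by level only. The cells carried fibroblast RNA: all 9 fibroblast markers examined had a mean of at least 1 FPKM, with a summed level of 6470 to 7179 FPKM in the controls and 8134 to 9663 in the knockdown clones. No neuronal marker of 6 and no glial marker of 5 reached 1 FPKM. The summed neuronal markers came to 0.236 to 0.265 FPKM in the controls and 0.167 to 0.457 in the knockdown clones. The endothelial markers Cdh5 and Tek reached 1 FPKM, with a summed level over 5 markers of 4.95 to 8.61 FPKM in the controls and 1.42 to 11.0 in the knockdown clones. So did epithelial Krt14 (5 markers, 2.37 to 2.66 and 0.703 to 6.51) and blood-cell Cd68 (4 markers, 3.15 to 3.47 and 2.92 to 4.45), while Epcam and Cd3e were listed at 0. The part of such transcripts in the results was not tested. In a bulk library, fewer cells with a transcript and less transcript per cell cannot be told apart.

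Both targeted genes were lower in every knockdown clone than in both controls, to different depths. H3f3a, which encodes H3.3, had 128.3 and 143.5 FPKM in control clones 1 and 2, and 71.8, 35.6 and 5.05 in knockdown clones 1 to 3. H3f3b, the second H3.3 gene, had 249.4 and 237.1 FPKM in the controls and 144.4, 104.3 and 51.7 in the knockdown clones. Clone 3 was the most depleted and clone 1 the least, and neither gene passed the test over all genes (limma adjusted p = 0.516 and 0.469). On the first principal component of all tested genes, with 39.1% of the variance, knockdown clone 1 lay at 72.6 and the other 4 clones from −40.1 to 0.6. It was the clone farthest from the control mean for 20 of the 32 tested guidance genes, against 2 for clone 2 and 10 for clone 3.

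No guidance gene passed the test. With limma on log2(FPKM + 1), Benjamini-Hochberg adjusted over 11728 genes, 0 of 32 members had an adjusted p under 0.05, and the smallest adjusted p was 0.377. The same test called 4 of all tested genes, or 0.0341%. At an unadjusted p under 0.05 there were 3 members, Sema3a, Sema3c and Sema3f, all class 3 semaphorins, beside 9.81% of all tested genes. The difference of the means, knockdown minus control on the log2 scale, was above 0 for 10 members and below 0 for 22, with a median of −0.16 against −0.10 over all tested genes. All 3 knockdown clones lay above both controls for 3 members (Sema3c, Sema3f and Ntn4) and below both for 6 (Sema3a, Sema4c, Sema5a, Sema7a, Efna5 and Ephb2). Over all tested genes these shares were 11.4% and 21.2%. Sema7a, among the 6, and Sema6a, also with a difference below 0, entered the test through the control mean only. The filter thus favoured their direction, and the median without them was not computed. A fold change on this scale understates the change of genes near 1 FPKM.

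**Figure D1:**
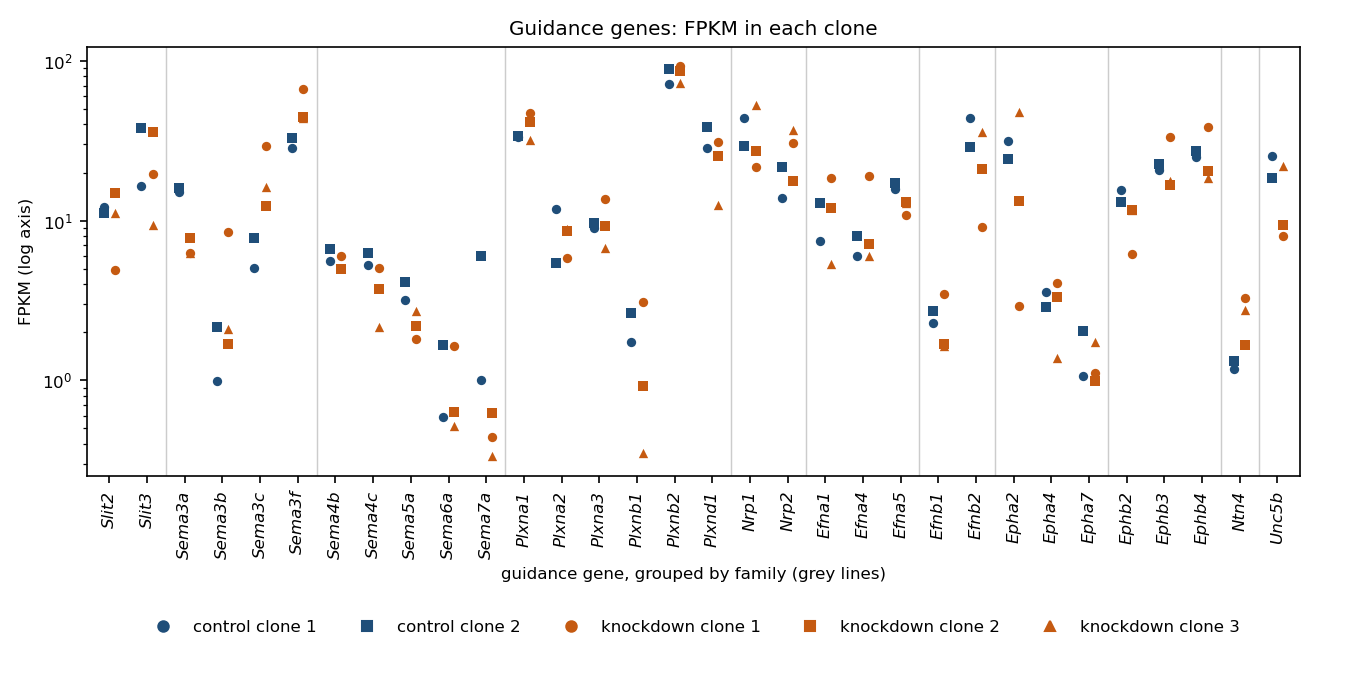
FPKM (log axis) of the 32 tested guidance genes, with 1 point for each control clone (blue) and knockdown clone (orange), grouped by family between grey lines. Plxnb2 lies highest in each clone, the points of Sema3a, Sema3c and Sema3f separate by group, and those of most receptors mix.

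Slit2 and Slit3 were expressed without Robo1 or Robo2. Slit3 (mm9 chr11:34934958-35522009) had 16.4 and 37.8 FPKM in the controls and 19.7, 35.7 and 9.43 in the knockdown clones. Slit2 (mm9 chr5:48374394-48697521) had 12.1 and 11.2 FPKM in the controls and 4.90, 14.9 and 11.2 in the knockdown clones. For Slit3 knockdown clones 1 and 2 lay between the controls and clone 3 under both, and for Slit2 clone 1 alone lay far from the others. Slit1 stayed at 0.335 FPKM or below in every clone. Robo1 and Robo2, the Slit receptors on the list, reached at most 0.00336 and 0.00451 FPKM, which is about 1 estimated fragment in 1 clone.

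The class 3 semaphorins, secreted ligands of neuropilin and plexin receptors, had 4 tested members. Of these, 3 did not overlap between groups and lay on opposite sides of the controls. Among all tested genes, 11.4% lay above both controls in every knockdown clone and 21.2% lay below both. Sema3a, a repulsive cue and the classic growth cone collapsing factor, had 15.0 and 16.0 FPKM in the controls and 6.28, 7.78 and 6.23 in knockdown clones 1 to 3. All 3 knockdown values were under those of both controls, at 40.6%, 50.2% and 40.2% of the control mean. The log2 difference was −1.09 ± 0.18 (SE, limma adjusted p = 0.377), with a 95% interval from −1.54 to −0.65.

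Sema3c, a cue with a role in the developing heart outflow tract, had 5.05 and 7.80 FPKM in the controls and 29.5, 12.4 and 16.3 in the knockdown clones. Every knockdown value was above both controls, from 193% to 460% of the control mean, with clone 1 the highest. Its log2 difference was 1.40 ± 0.40 (SE, limma adjusted p = 0.457). Sema3f, a ligand that prefers neuropilin 2, had 28.5 and 33.1 FPKM in the controls and 66.7, 44.8 and 44.0 in the knockdown clones. Here too the groups did not overlap and clone 1 was highest, and the log2 difference was 0.71 ± 0.25 (SE, limma adjusted p = 0.491). Sema3b, at a mean of 3.08 FPKM, overlapped between groups, and Sema3d and Sema3e stayed at 0.123 FPKM or below. So Sema3a, Sema3c and Sema3f each had an unadjusted p under 0.05, with Sema3a below the controls and the other two above them, and none passed over all genes.

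The 5 tested semaphorins of classes 4 to 7, most of them membrane-bound, had differences below 0, as had 59.9% of all tested genes. Of these, Sema6a and Sema7a passed the filter on low values through the control mean only, and the Sema6a difference reached 0.23 without control clone 2. Sema4b, the most abundant of them, had 5.57 and 6.66 FPKM in the controls and 6.03, 4.97 and 5.04 in the knockdown clones. Sema4c had 5.28 and 6.26 FPKM in the controls and 5.08, 3.71 and 2.16 in the knockdown clones. Sema4b overlapped between groups, whereas each Sema4c value of the knockdown clones was under both controls, by a log2 difference of −0.59 ± 0.32 (SE, limma adjusted p = 0.552), or −0.34 without knockdown clone 3.

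Sema5a, a transmembrane semaphorin with thrombospondin repeats, had 3.17 and 4.14 FPKM in the controls and 1.81, 2.20 and 2.72 in the knockdown clones. Sema7a, which is held to the membrane by a GPI anchor and signals through integrins and plexin C1, had 1.00 and 6.04 FPKM in the controls and 0.444, 0.621 and 0.334 in the knockdown clones. Neither gene overlapped between groups, but the Sema7a controls differed from each other by more than control clone 1 did from any knockdown clone. That gene passed the filter on low values through the controls alone, and rested on as few as 29 estimated fragments in 1 clone. Its log2 difference was −1.36 ± 0.56 (SE, limma adjusted p = 0.512), and was −2.27 without control clone 1, −0.45 without control clone 2 and −2.23 with a pseudocount of 0.1. Its plexin partner Plxnc1 stayed at 0.0578 FPKM or below. Sema6a, with 0.593 and 1.67 FPKM in the controls and 1.63, 0.637 and 0.518 in the knockdown clones, was near the filter. Sema4a, Sema4d, Sema5b and Sema6d did not exceed 0.269 FPKM.

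Plexins are the signalling receptors of the semaphorins, and Plxnb2 had the highest mean of all guidance genes. This receptor of class 4 semaphorins had 71.7 and 89.4 FPKM in the controls and 92.2, 86.3 and 72.8 in the knockdown clones. The groups overlapped, with a log2 difference of 0.06 and a 95% interval from −0.48 to 0.59 that turned to −0.10 without control clone 1 and to −0.01 without knockdown clone 1. Plxna2 had 11.8 and 5.41 FPKM in the controls and 5.82, 8.65 and 8.82 in the knockdown clones, between which no order by group was seen. Its difference of −0.07 became 0.06 after quantile normalization. Plxnb1, a receptor of Sema4d, had 1.75 and 2.64 FPKM in the controls and 3.08, 0.923 and 0.349 in the knockdown clones, so knockdown clone 1 was the highest of the 5 and clone 3 the lowest. Plxna1, Plxna3 and Plxnd1 had means of 37.6, 9.66 and 27.2 FPKM and overlapped between groups.

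The neuropilins, co-receptors of class 3 semaphorins, overlapped between groups. Nrp1, the co-receptor of Sema3a, had 44.0 and 29.5 FPKM in the controls and 21.6, 27.3 and 53.3 in the knockdown clones. Nrp2 had 13.9 and 21.6 FPKM in the controls and 30.4, 17.8 and 37.0 in the knockdown clones. Knockdown clone 3 held the highest value of both genes, while clone 1 was the lowest for Nrp1 and the second highest for Nrp2. The log2 difference was −0.18 ± 0.43 for Nrp1 and 0.62 ± 0.37 for Nrp2 (SE, limma adjusted p = 0.875 and 0.564). Without control clone 1 these were 0.10 and 0.32, and without control clone 2 they were −0.46 and 0.92. Without knockdown clone 3 the differences of Nrp1 and Nrp2 were −0.55 and 0.40.

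Ephrins are split into GPI-anchored A ligands and transmembrane B ligands. Efna5 had 15.7 and 17.3 FPKM in the controls and 10.9, 13.0 and 12.9 in the knockdown clones. The clones were closely spaced and did not overlap between groups, with a log2 difference of −0.40 ± 0.17 (SE, limma adjusted p = 0.517). Efnb2, the ligand of Ephb4 that marks arterial endothelium, had 43.9 and 29.0 FPKM in the controls and 9.11, 20.9 and 36.1 in the knockdown clones. Knockdown clone 3 lay between the controls, clone 2 at 57.3% and clone 1 at 25.0% of the control mean, and the difference of −0.86 ± 0.57 (SE, limma adjusted p = 0.589) was −0.37 without knockdown clone 1, −0.57 without control clone 1 and −1.30 without knockdown clone 3. Efnb1 had 2.30 and 2.70 FPKM in the controls and 3.47, 1.68 and 1.64 in the knockdown clones, on both sides of the controls. Efna1 and Efna4 had means of 11.2 and 9.23 FPKM and overlapped between groups, and Efna2 and Efnb3 stayed under 1 FPKM in every clone.

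Eph receptors included the member with the widest spread between clones. This was Epha2, a receptor kinase with roles in epithelia and vessels. It had 31.6 and 24.3 FPKM in the controls and 2.91, 13.2 and 47.6 in the knockdown clones. Clone 1 was at 10.4% and clone 3 at 170% of the control mean, so the clones lay on both sides of the controls. The 95% interval of its log2 difference, from −3.63 to 1.54, was the widest of all 32 members. Efnb2 and Nrp1 also had their lowest value in clone 1, and in each of these genes clone 3 was the highest of the knockdown clones. Epha4 had 3.55 and 2.88 FPKM in the controls and 4.06, 3.32 and 1.39 in the knockdown clones, which is no order by group.

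Ephb2 had 15.6 and 13.0 FPKM in the controls and 6.15, 11.7 and 11.7 in the knockdown clones. Clones 2 and 3 lay close under the lower control and clone 1 far under it, and the log2 difference was −0.54 ± 0.31 (SE, limma adjusted p = 0.558), or −0.27 without knockdown clone 1. Ephb4, the receptor of Efnb2, had 25.0 and 27.3 FPKM in the controls and 38.7, 20.5 and 18.5 in the knockdown clones. Clone 1 was above both controls and the others were below them. Its difference of −0.09 became 0.05 after quantile normalization. Ephb3 and Epha7 overlapped between groups, at means of 22.2 and 1.38 FPKM. Epha3 and Ephb1 were listed at 0 in all 5 clones, and Epha5 at 0.00695 FPKM or below.

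Netrins and their receptors had 1 tested member each. Ntn4, a netrin of basement membranes, had 1.17 and 1.32 FPKM in the controls and 3.27, 1.67 and 2.74 in the knockdown clones. All knockdown clones were above both controls, with a log2 difference of 0.64 ± 0.28 (SE, limma adjusted p = 0.517) at 97 to 198 estimated fragments per clone. Unc5b, a netrin receptor that mediates repulsion, had 25.4 and 18.6 FPKM in the controls and 8.01, 9.32 and 22.0 in the knockdown clones. Clones 1 and 2 were at 36.4% and 42.3% of the control mean, and clone 3 lay between the controls. Ntn1 and Unc5c had means of 0.410 and 0.863 FPKM and were not tested.

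**Figure D2:**
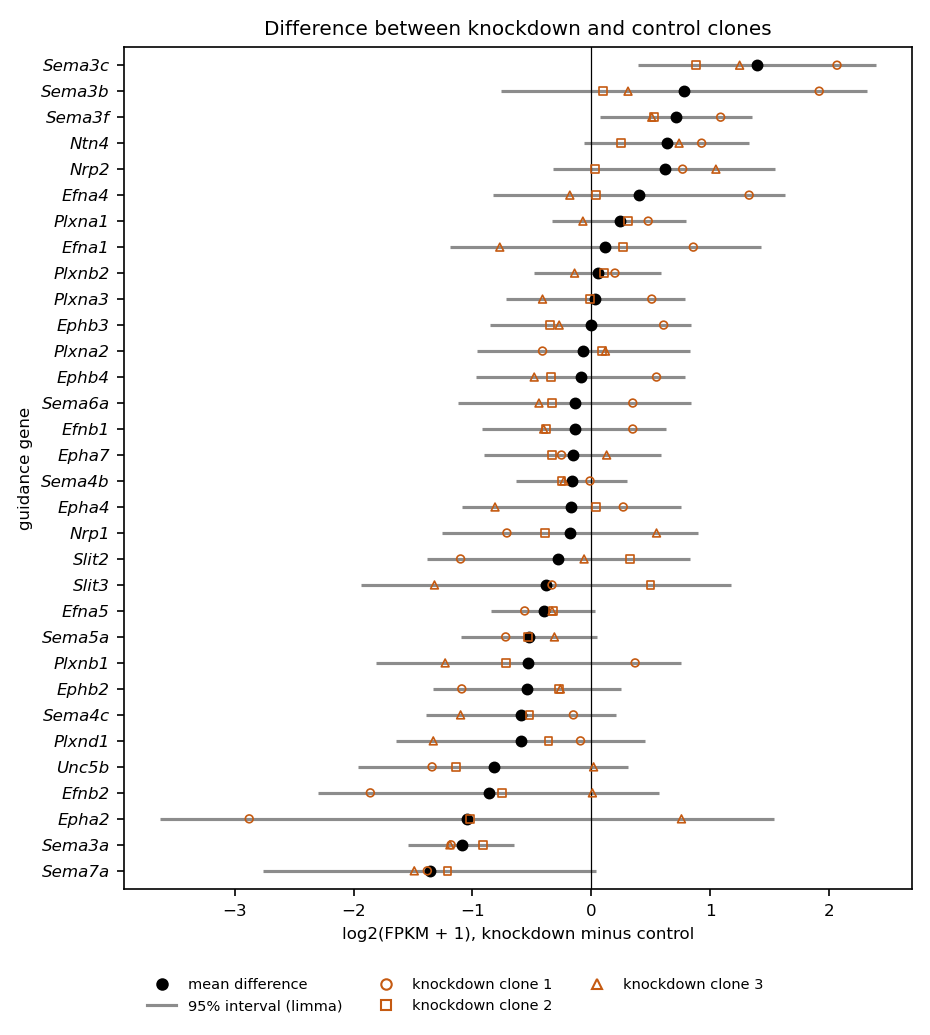
Difference in log2(FPKM + 1), knockdown minus control, of the 32 tested guidance genes: black points are means, grey lines 95% limma intervals, and open symbols the 3 knockdown clones against the control mean. The intervals of Sema3a, Sema3c and Sema3f leave out 0, and the open symbols of Epha2 reach from the far left to the right of 0.

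Beyond these members, 29 other guidance ligands, receptors and co-receptors and 53 intracellular effectors and partners were read from the same fit. Of the first list 11 were tested by limma and 0 were called (2 at an unadjusted p under 0.05, beside 9.81% of all tested genes), with 4 differences above 0, 7 below and a median of −0.25 against −0.10. Rgmb, a repulsive guidance molecule and BMP co-receptor, had 22.1 and 27.4 FPKM in the controls and 13.0, 10.1 and 13.4 in the knockdown clones. Its receptor Neo1 had 18.7 and 23.9 FPKM in the controls and 12.0, 14.5 and 15.1 in the knockdown clones. Both lay under the controls in every knockdown clone, with log2 differences of −0.97 ± 0.21 and −0.58 ± 0.20 (SE, limma adjusted p = 0.417 and 0.489). Rgma, the other abundant gene of the list, overlapped, with 14.5 and 34.6 FPKM in the controls and 60.9, 23.5 and 16.7 in the knockdown clones.

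Of the effectors 45 were tested by limma and 0 were called (3 of 45 at an unadjusted p under 0.05, beside the same 9.81%), with 22 differences above 0, 23 below and a median of −0.03. Rasa1, a Ras GTPase-activating protein that works downstream of Eph receptors, had 21.0 and 16.8 FPKM in the controls and 8.12, 12.0 and 11.2 in the knockdown clones. Ablim1, an actin-binding protein, had 5.88 and 7.72 FPKM in the controls and 32.9, 23.6 and 10.9 in the knockdown clones. Their log2 differences were −0.81 ± 0.23 and 1.47 ± 0.47 (SE, limma adjusted p = 0.457 and 0.468), without overlap between groups. The most abundant effectors, the actin-severing protein Cfl1 and the GTPase Rac1, had differences of 0.20 ± 0.25 and 0.07 ± 0.24 (SE, limma adjusted p = 0.748 and 0.911).

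Chromatin at the guidance genes was read as deposited peaks or peak regions that overlap, by at least 1 bp, the windows within 2 kb of either locus end. With 1 library per condition there is no replicate check, and the counts are a description. H3K4me3, a mark of active and poised promoters, had a peak at 33 of 50 members (66.0%, against 54.4% of all listed genes). These were all 32 tested members (100%, against 91.7% of all tested genes) and Plxna4, which had a mean of 0.859 FPKM. Among the 18 members that were not tested, 17 had no H3K4me3 peak within 2 kb of a locus end. When peaks anywhere in the locus were counted too, 15 of these 18 had one. Of all 50 members 47 then had one (94.0%, against 61.5% of all listed genes). The share among all genes that were not tested was not computed, and locus length was not taken into account. H3K9ac peaks lay at 26 tested members (81.2%, against 86.2%) and H3K27ac peaks at 19 (59.4%, against 64.9%), which is slightly under the background for both marks. Both comparisons depend on the setting. For H3K27ac, a peak score of at least 100 gave 28.1% against 40.0%, and peaks anywhere in the locus 81.2% against 70.5%. For H3K9ac, these settings gave 75.0% against 82.3% and 93.8% against 88.4%. Windows of 5 kb gave 90.6% against 88.4% for H3K9ac and 68.8% against 69.8% for H3K27ac. Sema3a, Sema3b, Sema4b, Plxna3, Epha7 and Ntn4 had H3K4me3 but no H3K9ac peak. A region with an H3.3 peak in both replicates lay at 27 tested members (84.4%, against 72.0%). It also lay at 4 members that were not tested, namely Sema4a, Plxna4, Efna2 and Ntn1. Of all 50 members 31 had one (62.0%, against 43.4% of all listed genes). The H3.3 share of tested members also depended on the setting. It was 65.6% against 63.5% with a covered fraction of at least 0.5, and 71.9% against 68.6% within 1 kb. Windows of 5 kb gave 87.5% against 78.8%, and regions anywhere in the locus 93.8% against 79.7%.

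In unmodified cells the subunits differed in how many guidance genes they covered. RBBP4, a histone-binding subunit, had a region at 28 tested members (87.5%, against 79.0% of tested genes). The deacetylases HDAC2 and HDAC1 had one at 25 (78.1%, against 51.6%) and at 16 (50.0%, against 31.4%). The remodelling ATPase CHD4 had a region at 4 members (12.5%, against 11.2%), which were Sema5a, Plxnd1, Ephb3 and Ntn4. MTA1 had one at 3 (9.38%, against 13.1%), and MBD2/3 at 2 (6.25%, against 13.8%). With regions anywhere in the locus, CHD4 was at 21.9% of tested members against 13.2%. No member had regions for more than 4 of the 6 subunits. Many of these regions are only partly covered by a peak: with a covered fraction of at least 0.5, HDAC2 was left at 10 tested members (31.2%, against 11.0% of tested genes). HDAC1, CHD4, MTA1 and MBD2/3 were then at 0 members, against 2.27%, 0.742%, 0.964% and 1.66%.

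**Figure D3:**
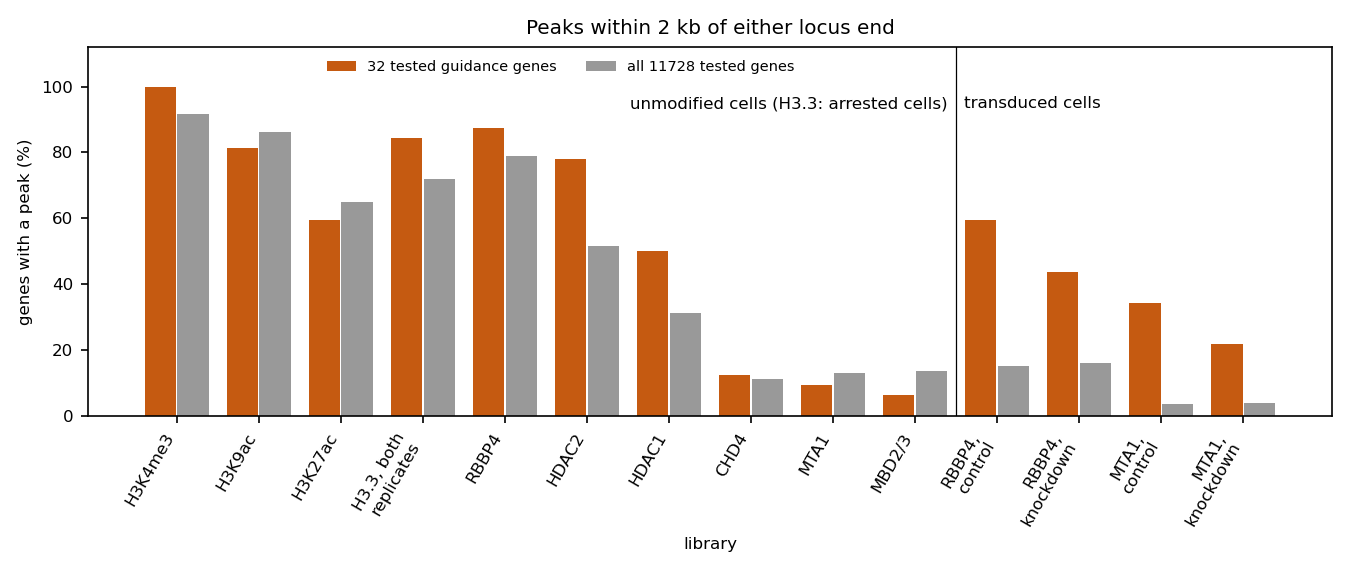
Percent of the 32 tested guidance genes (orange) and of all 11728 tested genes (grey) with a deposited peak or peak region within 2 kb of either locus end, per library. Grey and orange bars are close for the marks, whereas RBBP4 in control cells stands at 59.4% against 15.2%.

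The peak lists of transduced cells held more guidance genes than their share of all genes. The members were chosen with earlier results of these data known, and peaks at other guidance genes were not counted. How far this choice moves the shares below was not tested. RBBP4 peaks lay at 19 tested members in control cells (59.4%, against 15.2%) and at 14 in knockdown cells (43.8%, against 16.0%). MTA1 peaks lay at 11 members in control cells (34.4%, against 3.65%) and at 7 in knockdown cells (21.9%, against 3.89%). The MTA1 library of unmodified cells differed, with regions at 3 tested members (9.38%, against 13.1%). Of these only Plxna2 was among the 11 of the control list. The windows of 10 members hold part of another gene locus, as of Gnat1 at Sema3f and Dennd6b at Plxnb2. Without all genes of this kind, a choice made after seeing the data, RBBP4 peaks lay at 15 of 24 members in control cells (62.5%, against 17.7%) and at 11 in knockdown cells (45.8%, against 17.5%). The corresponding MTA1 counts were 7 (29.2%, against 4.65%) and 4 (16.7%, against 4.36%).

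A total of 13 members had an RBBP4 peak in both lists: Slit2, Slit3, Sema3c, Sema3f, Sema5a, Plxna2, Nrp1, Efna5, Efnb1, Efnb2, Epha4, Ephb4 and Unc5b. Sema7a, Plxnb1, Plxnb2, Nrp2, Epha2 and Ephb2 had one in the control list only, and 5 of these 6 are receptors. Sema6a had one in the knockdown list only. Of all tested genes with an RBBP4 peak in control cells 57.6% also had one in knockdown cells, and 54.7% of those with one in knockdown cells also had one in control cells. For MTA1, 7 members had a peak in both lists (Sema3f, Sema5a, Plxnb2, Efna5, Efnb2, Epha4 and Unc5b), 4 in the control list only (Slit3, Plxna2, Plxnb1 and Nrp1) and 0 in the knockdown list only, beside 29.0% and 27.2% of all tested genes shared in the 2 directions. Each member with an MTA1 peak also had an RBBP4 peak in the control list.

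The highest authors' score among the control-only members was 184.61, at Nrp2, and the Sema6a peak scored 59.02, in lists that start at about 50. Scores at the members in both lists reached from 50.87 at Efnb1 to 2217.04 at Sema3f in control cells. Of the 37 RBBP4 peaks at members in control cells, 17 overlapped a knockdown peak. Above a score of 200 this held for 10 of 10 (86.0% over the whole list), from 100 to 200 for 5 of 9 (57.8%), from 60 to 100 for 1 of 7 (26.9%) and under 60 for 1 of 11 (11.5%). Of 16 MTA1 peaks at members in control cells, 9 overlapped a knockdown peak, against 16.1% of the control list. The MTA1 lists differ in form: member peaks were 122 to 643 bp wide in control cells and 690 to 1853 bp in knockdown cells, and the lists' median widths were 150 and 861.5 bp. How far this width moves the overlap was not tested.

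The strongest RBBP4 peak at any guidance gene in control cells was at Sema3f (mm9 chr9:107611322-107612941), 1620 bp wide, with an authors' score of 2217.04 and rank 11 of 3561. Next came a 2850 bp peak inside Slit2 (mm9 chr5:48375176-48378025), with a score of 1980.88 and rank 12. Unc5b followed with 971.12 (mm9 chr10:60293226-60294518), then Efnb2 with 792.11, Plxna2 with 765.95, Efna5 with 735.12, Sema5a with 662.18 and Slit3 with 609.39. In the knockdown list of 2919 peaks the leading members were Unc5b with a score of 1124.12 and rank 10 (mm9 chr10:60293625-60294547), Efnb2 with 878.73, Efna5 with 618.37 and Sema3f with 571.08. In that list Slit2 had a single peak in the 2 kb window, of 329 bp and a score of 147.61, inside its broad control peak. The control peak runs on beyond the window, where knockdown peaks were not read. Scores depend on depth, which is unknown for these libraries, and were read only within a list.

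MTA1 was strongest at Sema3f in control cells (mm9 chr9:107611757-107612399), with an authors' score of 487.69 and rank 14 of 1703, inside the RBBP4 peak of the gene. Unc5b and Sema5a followed with 226.73 and 171.70. In the knockdown list of 904 peaks the highest member was Efnb2 (mm9 chr8:8660586-8662346), with a score of 233.87 and rank 13, ahead of Unc5b with 119.79, Sema5a with 102.67 and Sema3f with 77.59. Sema3f therefore led the members for both proteins in control cells, and Efnb2 and Unc5b led them in knockdown cells.

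**Figure D4:**
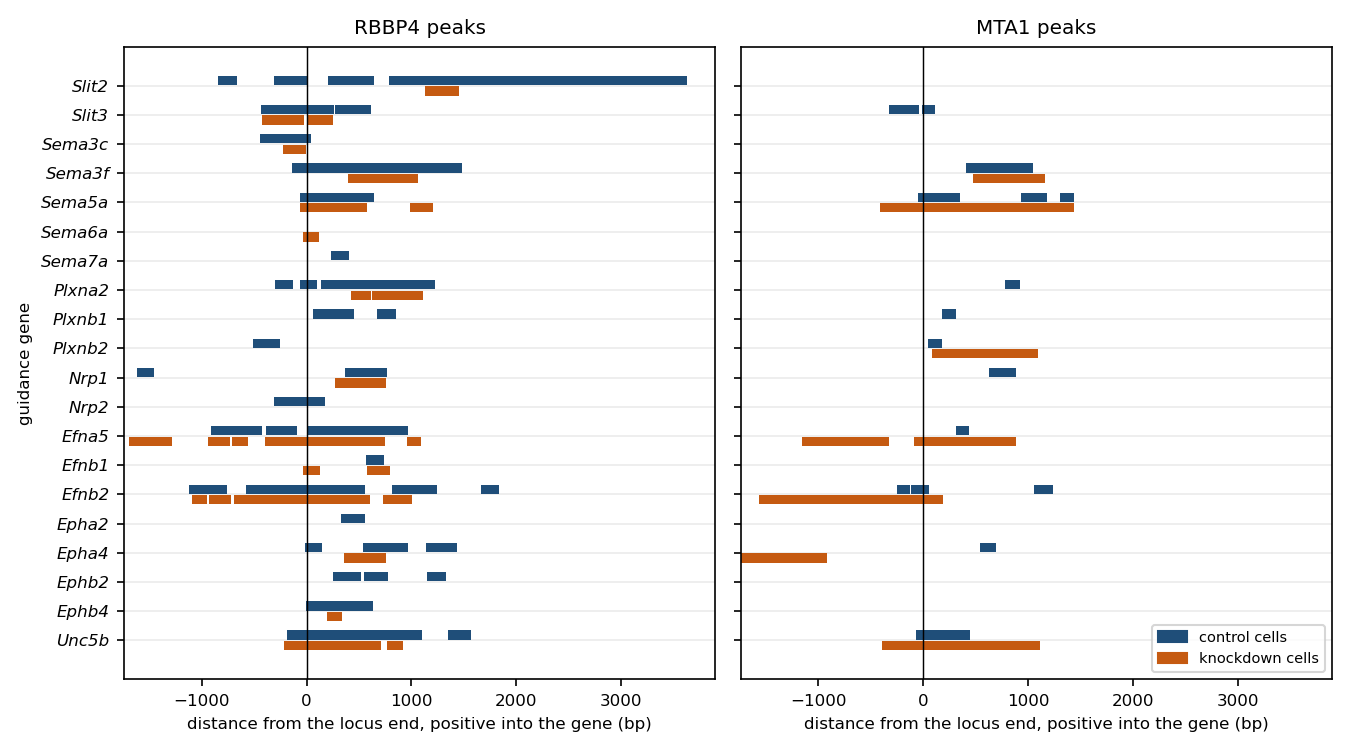
RBBP4 (left) and MTA1 (right) peaks of control (blue) and knockdown (orange) cells around the locus end that holds them, as bars drawn to width, with distance in bp and positive values inside the gene. Most peaks lie close to the locus end, Slit2 has the 2850 bp control peak, and MTA1 bars are wider in knockdown cells.

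These peaks sat at gene starts. The RefSeq promoter table gives a strand for 42 members, and all 28 of those with H3K4me3 had it at the start end, 2 of them (Sema4c and Efna1) at the other end as well. All 60 RBBP4 peaks at members of known strand were at the start end. Of the 37 control peaks 25 had their centre inside the locus and 12 before it, and the median centre lay 384 bp inside. All 20 members with an RBBP4 peak in either list had H3K4me3. The summed width of the H3K4me3 peaks in the windows had a median of 4337 bp for members with RBBP4 in control cells and of 2961 bp for the 13 members with H3K4me3 and no RBBP4 peak. Over all tested genes with H3K4me3, the medians were 3456 bp for 2633 genes with an RBBP4 peak in either list and 2924 bp for 8116 without. A sequential ChIP for FLAG-tagged H3.3 and then RBBP4, from doxycycline-treated cells, had 6 peaks in all and 0 at members.

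Levels at the region nearest the gene start were available for 36 members, as RPKM per region. For Sema3b, Sema3f, Sema6a, Plxna1 and Plxna4, whose strand was not known, the locus end with the H3K4me3 peak was used. For the 20 members with an RBBP4 peak in either list, RBBP4 in unmodified cells had a median of 5.19 RPKM (2.36 to 9.17), and for the 16 others 2.51 (0.834 to 5.85), beside 3.62 over 7770 tested genes with such a region. HDAC2 had medians of 3.71 and 1.83 RPKM in the same sets, and H3K4me3 of 16.4 and 3.49. Over all tested genes the same split gave closer medians, of 4.10 and 3.46 RPKM for RBBP4, 3.16 and 2.73 for HDAC2, and 17.1 and 15.2 for H3K4me3. The 16 include members that were not tested and lack H3K4me3. For Plxna1, Sema4b and Ntn4, also among the 16, the nearest region did not overlap the H3K4me3 peak of the gene. H3K4me3 there was 0.437, 0.383 and 0.269 RPKM, and the regions of Sema4b and Ntn4 lay 1417 and 767 bp from the locus end. How far this moves the medians was not tested. H3.3 had medians of 3.37 and 2.63 RPKM in replicate 1 and of 3.07 and 2.91 in replicate 2, which is a small difference beside the range from 0.767 to 6.57 within the first set in replicate 1.

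Sema5a had the highest RBBP4, HDAC2, HDAC1 and H3K4me3 levels of the 36 (9.17, 6.68, 3.72 and 29.6 RPKM) in an 836 bp region, on 69, 37, 27 and 597 reads. Epha2, the member with the widest spread between clones, had the highest H3K27ac and H3K9ac levels (2.78 and 7.08 RPKM) and the lowest H3.3 level of the RBBP4 set in replicate 1 (0.767 RPKM, 16 reads, and 1.70 in replicate 2). Sema7a had the highest H3.3 level in replicate 1 and Nrp1 in replicate 2 (6.57 and 6.43 RPKM). Plxna1, at 0.776 and 0.430 RPKM, was the lowest for H3.3 without an RBBP4 peak, on 4 and 3 reads.

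**Figure D5:**
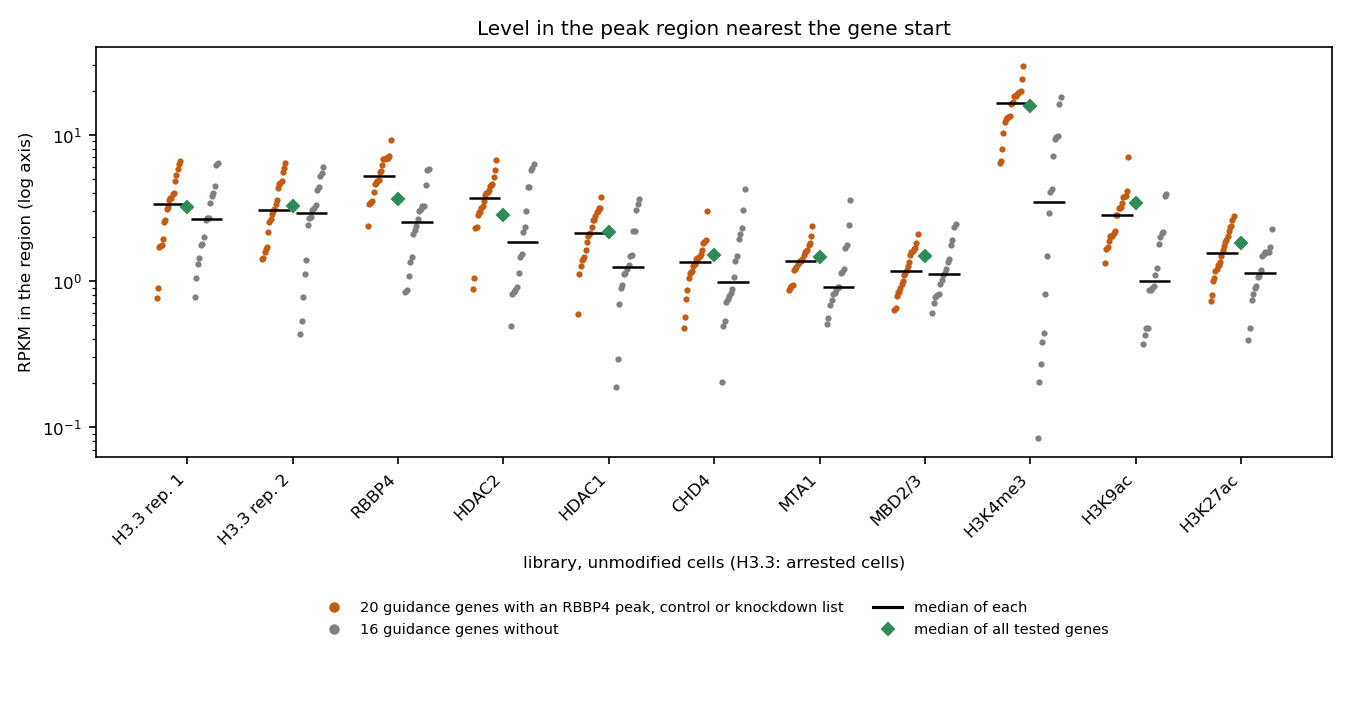
RPKM (log axis) in the peak region nearest the gene start per library, for 20 guidance genes with an RBBP4 peak in the control or knockdown list (orange) and 16 without (grey), with black lines at the medians and green diamonds at the median of all tested genes. The sets overlap in each library, and their medians are farthest apart for H3K4me3 (16.4 and 3.49).

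The upstream sequences below, from RefSeq (GRCm38.p6, 5′ to 3′ on the strand of the gene, ending at the base before the start), show the base composition at members with the highest RBBP4 scores, beside a member with H3K4me3 but no RBBP4 peak in transduced cells and a member without H3K4me3 near its ends. CG dinucleotides are in capitals. Slit2, Unc5b and Efnb2 had the highest RBBP4 scores in control cells among members with 1 promoter in the table. They lie at chr5:47982905-47983154 (+), chr10:60831582-60831831 (−) and chr8:8661243-8661492 (−). The highest-scoring Slit2 peak has its centre 2207 bp inside the locus, so the bases printed for this gene lie before that peak.
Slit2: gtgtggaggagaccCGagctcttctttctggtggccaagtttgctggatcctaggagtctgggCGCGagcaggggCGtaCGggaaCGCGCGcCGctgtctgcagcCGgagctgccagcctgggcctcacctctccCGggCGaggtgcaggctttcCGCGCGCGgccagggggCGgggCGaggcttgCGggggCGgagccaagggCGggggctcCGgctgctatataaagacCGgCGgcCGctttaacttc
Unc5b: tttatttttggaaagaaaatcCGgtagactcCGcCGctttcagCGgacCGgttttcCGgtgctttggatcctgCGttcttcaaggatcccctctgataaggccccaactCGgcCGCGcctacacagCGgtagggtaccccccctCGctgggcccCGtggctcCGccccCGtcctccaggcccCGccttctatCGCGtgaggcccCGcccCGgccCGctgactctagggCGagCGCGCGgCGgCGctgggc
Efnb2: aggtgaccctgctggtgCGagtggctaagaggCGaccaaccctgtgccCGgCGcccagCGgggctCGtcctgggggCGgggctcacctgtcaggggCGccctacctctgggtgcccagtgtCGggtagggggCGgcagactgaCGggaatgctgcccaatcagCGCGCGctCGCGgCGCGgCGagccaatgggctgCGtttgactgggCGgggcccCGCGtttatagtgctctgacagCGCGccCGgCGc

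Plxnd1 (chr6:115995006-115995255, −) is the most abundant such member with H3K4me3 and no RBBP4 peak in transduced cells, although it had RBBP4, HDAC1, HDAC2 and CHD4 regions in unmodified cells. Epha3 (chr16:63864176-63864425, −) was listed at 0 FPKM and had no H3K4me3 peak within 2 kb of its ends.
Plxnd1: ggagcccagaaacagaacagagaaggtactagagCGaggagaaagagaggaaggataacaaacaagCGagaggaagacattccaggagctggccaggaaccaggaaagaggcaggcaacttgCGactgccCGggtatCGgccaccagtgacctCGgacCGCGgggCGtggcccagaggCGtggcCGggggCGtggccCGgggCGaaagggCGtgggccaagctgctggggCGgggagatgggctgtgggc
Epha3: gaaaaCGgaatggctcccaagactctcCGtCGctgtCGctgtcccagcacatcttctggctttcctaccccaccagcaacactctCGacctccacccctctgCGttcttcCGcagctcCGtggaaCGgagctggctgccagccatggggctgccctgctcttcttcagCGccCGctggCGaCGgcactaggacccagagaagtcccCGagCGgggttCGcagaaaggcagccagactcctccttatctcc

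These 250 bases hold 25 CG dinucleotides at Slit2, 27 at Unc5b, 27 at Efnb2, 16 at Plxnd1 and 16 at Epha3. The table held 55 promoters of 42 members. Slit1, Sema3b, Sema3f, Sema6a, Plxna1, Plxna4, Efnb3 and Ntn1 were not matched. The median was 20 CG dinucleotides for 19 promoters of members with an RBBP4 peak in transduced cells. It was 17 for 14 with H3K4me3 and no such RBBP4 peak, and 8.5 for 22 without H3K4me3. Over promoters of tested genes it was 16, and over all 32851 it was 6. Epha3 thus had as many as Plxnd1, and the sets overlapped, with 9 to 39, 2 to 26 and 1 to 25.

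Searched on both strands of these 250 bases, GGGCGG, the core of the GC box bound by Sp1, was in 69.1% of member promoters, in 58.9% of those of tested genes and in 32.7% of all. It was in 89.5% of the RBBP4 set and in 85.7% of the set with H3K4me3 and no RBBP4 peak in transduced cells. In the set without H3K4me3 it was in 40.9%. TGANTCA, the AP-1 motif, was in 3.64% of member promoters (2 of 55), in 4.42% of those of tested genes and in 6.75% of all. CACCTG, an E-box, was in 12.7%, 14.0% and 17.2% of the same sets. Each motif was searched alone, so matches of different motifs may share bases, and a match is only a description of the sequence.

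Set beside expression, members with RBBP4 peaks had differences on both sides of 0. For the 13 members with a peak in both lists the log2 difference was above 0 for 2 (Sema3c and Sema3f) and below 0 for 11, with a median of −0.18 (−0.10 over all tested genes). Of all tested genes 59.9% were below 0, and their split by RBBP4 peak was not computed. Among the 11, Slit2, Slit3, Plxna2, Nrp1, Epha4 and Ephb4 changed direction in at least 1 alternative run. For the 6 with a control peak only it was above 0 for 2 (Nrp2 and Plxnb2) and below 0 for 4. Without Sema7a, which passed the filter through the controls alone, the median of these was −0.53, from −1.05 at Epha2 to 0.62 at Nrp2. Sema3a, the member with the smallest p, had no RBBP4 or MTA1 peak in either condition, and Ntn4 had none either. The 12 tested members without an RBBP4 peak in the control or knockdown list had 6 differences above 0 and 6 below, with a median of 0.02. They are not free of RBBP4 in all libraries. Sema3a, Sema3b, Sema4c, Plxna1, Plxnd1, Efna1, Efna4 and Ephb3 had an RBBP4 region in unmodified cells. Binding in these libraries came from cells labelled by construct and expression from individual clones, so they cannot be matched clone by clone.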

How the data were processed

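The tools named in the submitters' processing notes are TopHat, Cufflinks, Cuffdiff, Bowtie, MACS2 and bedtools, and the genome build is mm9. Apart from the caller of the sequential ChIP list, their roles and versions, duplicate handling and strand are not given in the sources used, so reads of overlapping or antisense genes cannot be separated. The authors deposited FPKM per gene for each RNA library, per the file headers. Entries of a symbol were summed. Fragments, estimated from the deposited upper confidence bound taken as 2 SD, came to 25.9 and 25.2 M for the controls and 18.2, 26.5 and 18.6 M for the knockdown clones.

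Clones were compared with limma 3.58.1 in R 4.3.3 on log2(FPKM + 1), with a variance trend and a two-sided test. The 11728 genes whose FPKM averaged 1 or more entered. P-values were adjusted by Benjamini-Hochberg over these genes, with a threshold of 0.05. The script was tested on simulated data. The deposited table of region levels holds log2 values, read as log2(RPKM + 1), since this gave whole reads within 0.05 for 100% of values under 100 reads. The reads recovered numbered 6.62 to 24.1 M per library. A second deposited table gives the fraction of each region covered by each library's peaks, and a region counted where it was above 0. The authors' peak lists carry a score per peak, used only within a list, and their depth is unknown. The sequential ChIP list, called with MACS 2.1.1.20160309 per the file headers, holds pileup signal, −log10 p and q, and fold enrichment as deposited, and only its positions were used. Coordinates are mm9, printed 1-based, except promoters, which come from RefSeq (GRCm38.p6). Inputs were not used here.

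Members given clone by clone were the 10 tested ones of smallest p, the most abundant of each family, and those with an RBBP4 or MTA1 peak in the control or knockdown list. The other 8 tested members are given by their mean. Of the other lists, the 2 genes of smallest p and the 2 of highest FPKM were taken. The members and gene lists were chosen with earlier results of these data known. Groups were taken from the labels. Alternatives tried were another pseudocount, filter, normalization and variance model, leaving out each clone, a replicate block, and other windows, scores and covered fractions.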

Additional observations from a re-analysis of the deposited data

How the results depend on the processing

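No guidance gene and no gene of the 2 pathway lists was called in any alternative run. Over all genes the count of calls, 4 as reported, was 56 with no filter on low values, and 5 to 36 when 1 clone was left out, 36 of them without control clone 1. The clone numbers are shared by groups with nothing that says they pair the clones, and the deviations of same-numbered clones correlated at −0.25 and −0.095, so the replicate block (0 calls over all genes, a median member difference of −0.07, H3f3a −1.41, H3f3b −0.98) is given for completeness. The median member difference ranged from −0.26 to −0.06 when 1 clone was left out, and that of H3f3a and H3f3b from −3.20 to −1.41 and from −1.71 to −0.98. Of 256 values of the 24 genes given clone by clone, 236 kept their direction and 20, in 8 genes, reversed; the cause was not tested. With the replicate block these were Epha4 0.16, Ephb4 0.11, Sema6a 0.01 and Slit3 0.09, and after quantile normalization Ephb4 0.05 and Plxna2 0.06. Leaving out 1 clone gave ranges of −0.38 to 0.16 for Epha4, −0.41 to 0.11 for Ephb4, −0.55 to 0.10 for Nrp1, −0.56 to 0.43 for Plxna2, −0.10 to 0.22 for Plxnb2, −0.51 to 0.23 for Sema6a, −0.58 to 0.14 for Slit2 and −0.96 to 0.20 for Slit3. With a peak score of at least 100, H3K27ac was left at 9 members (28.1% of tested members, against 40.0% of tested genes). MTA1 was then at 3 in control cells (9.38%, against 0.784%) and 3 in knockdown cells (9.38%, against 0.571%). Without this score minimum MTA1 was at 11 and 7 members, so that difference in count rests on peaks of lower score. With peaks anywhere from 2 kb before to 2 kb after the locus, H3K27ac was at 32 members (81.2%, against 70.5%), H3K4me3 at 47, CHD4 at 7 (21.9%, against 13.2%), MBD2/3 at 7 (12.5%, against 16.1%) and MTA1 in unmodified cells at 5 (12.5%, against 16.3%). Within 1 kb, MBD2/3 was at 1. With a covered fraction of at least 0.5, CHD4, HDAC1, MBD2/3 and MTA1 were at 0 and HDAC2 at 11, with 10 tested (31.2%, against 11.0%). Leaving out genes whose windows hold part of another locus gave MTA1 at 7 and 4 members, with fewer genes counted. Depth limits low genes: Sema7a rests on as few as 29 estimated fragments.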
